A study of Mus musculus with 38 samples.

Results

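App and Thbd are described here in spleen cells of mice given cyclophosphamide, a chemotherapy drug that crosslinks DNA. These 2 genes were chosen by their values in these same arrays, which stayed above untreated on day 5, so their levels and their differences from untreated are given as a description with no test. The probe table pairs 2 probes with App, named 008P23 and 020G22, and 1 probe with Thbd, named 018D14. They are 2 of 9616 genes and 3 of 13443 probes in the table, and all 3 were among the 8319 probes that had enough values to be compared.

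The mice were of the DBA/2 strain and fell into 4 groups: 5 untreated mice, and 4, 5 and 5 mice whose splenocytes were taken 1, 2 and 5 days after an intraperitoneal dose of 83 mg/kg. No group carries an allele or transgene in the labels, which give no age or sex, and the mice are described as harvested independently. Each mouse was measured in 2 technical columns, 38 in all, as the log2 ratio of spleen RNA (Cy5) to a common reference (Cy3) of pooled marrow cells, described as untreated although its treatment field names cyclophosphamide. A value of 0 thus means the same signal as the reference, a difference of 1 between groups is 2-fold, and the reference cancels in differences between groups.

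An array column held 5829 to 10407 values, and the 2 columns of a mouse correlated at 0.581 to 0.962, below 0.7 in untreated mice 2 and 4 and day 5 mouse 5. In untreated mice the median over 6 T cell genes lay above 0 in 5 of 5 mice, that over 7 B cell genes in 4 of 5, and that over 6 neutrophil genes below 0 in 5 of 5, as spleen read against marrow. Spleen cells are a mixture, and fewer cells of a type and less RNA per cell cannot be told apart in these ratios.

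App encodes the amyloid precursor protein, a membrane protein that is cut by alpha-, beta- and gamma-secretases. It is best known from the brain, where beta- and gamma-cleavage release amyloid beta, but it is made in many tissues, and platelets store and release it. Thbd encodes thrombomodulin, a surface receptor of endothelium, monocytes and some dendritic cells. Thrombin bound to it stops clotting fibrinogen and instead activates protein C, which with its cofactor protein S breaks down clotting factors, so thrombomodulin turns a clotting enzyme into an anticoagulant one.

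The first App probe, 008P23, read near the reference in untreated spleens and about 1 log2 unit above it on days 1 and 2. Its values in the 5 untreated mice were -0.20, -0.044, 0.14, -0.013 and -0.26 on the log2 ratio scale. In the 4 day 1 mice they were 1.14, 0.88, 1.14 and 1.10. All 4 were well above the untreated mice, with mouse 2 the lowest of them. On day 2 the 5 values were 1.46, 1.08, 1.42, 1.27 and 1.04. On day 5 they were 0.58, 0.70, 0.57, 0.83 and 0.48. Every treated mouse was above every untreated mouse, and every day 5 mouse was below every mouse of days 1 and 2. Over all probes such a gap from untreated was present in 4.24% on day 1, 3.86% on day 2 and 0.673% on day 5, every day 2 mouse was above every day 5 mouse in 2.57%, and every day 1 mouse above every day 5 mouse in 2.34%. The group means were -0.076 ± 0.16 (SD, n = 5) untreated, 1.06 ± 0.12 (n = 4) on day 1, 1.25 ± 0.19 (n = 5) on day 2 and 0.63 ± 0.14 (n = 5) on day 5.

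The second App probe, 020G22, gave the same order of group means with a wider spread in the treated mice. Its untreated values were 0.042, -0.057, -0.20, -0.00089 and -0.030. The day 1 values were 0.96, 0.82, 0.074 and 0.91, and those of the 4 day 2 mice with a value were 0.93, 0.97, -0.098 and 1.21. The low mouse in each of these groups, mouse 3 on day 1 and mouse 4 on day 2, had a value in 1 of its 2 columns only, and day 2 mouse 3 had none and is missing from the fit. At the first probe the same 3 mice read 1.14, 1.27 and 1.42, among the other mice of their groups. The day 5 values were 0.17, 0.25, 0.057, 0.78 and 0.28, all above the untreated mice, with mouse 4 highest at this probe as at the other. The means were -0.050 ± 0.093 untreated (n = 5), 0.69 ± 0.42 (n = 4) on day 1, 0.75 ± 0.58 (n = 4) on day 2 and 0.31 ± 0.28 (n = 5) on day 5.

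The Thbd probe, 018D14, was below the reference in 4 of 5 untreated mice and above it in every treated mouse. The untreated values were -0.024, -0.54, -0.43, 0.040 and -0.27, the widest spread of the 4 groups. On day 1 the values were 0.39, 0.51, 0.45 and 0.44, and on day 2 they were 0.55, 0.40, 0.58, 0.35 and 0.66. On day 5 they were 0.28, 0.67, 0.31, 0.44 and 0.38. No treated mouse overlapped the untreated group, while the 3 treated groups overlapped one another. The means were -0.25 ± 0.25 (n = 5), 0.45 ± 0.049 (n = 4), 0.51 ± 0.13 (n = 5) and 0.42 ± 0.15 (n = 5) for untreated, day 1, day 2 and day 5. The mouse with the highest Thbd on day 5 was mouse 2, and not the mouse with the highest App.

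**Figure D1:**
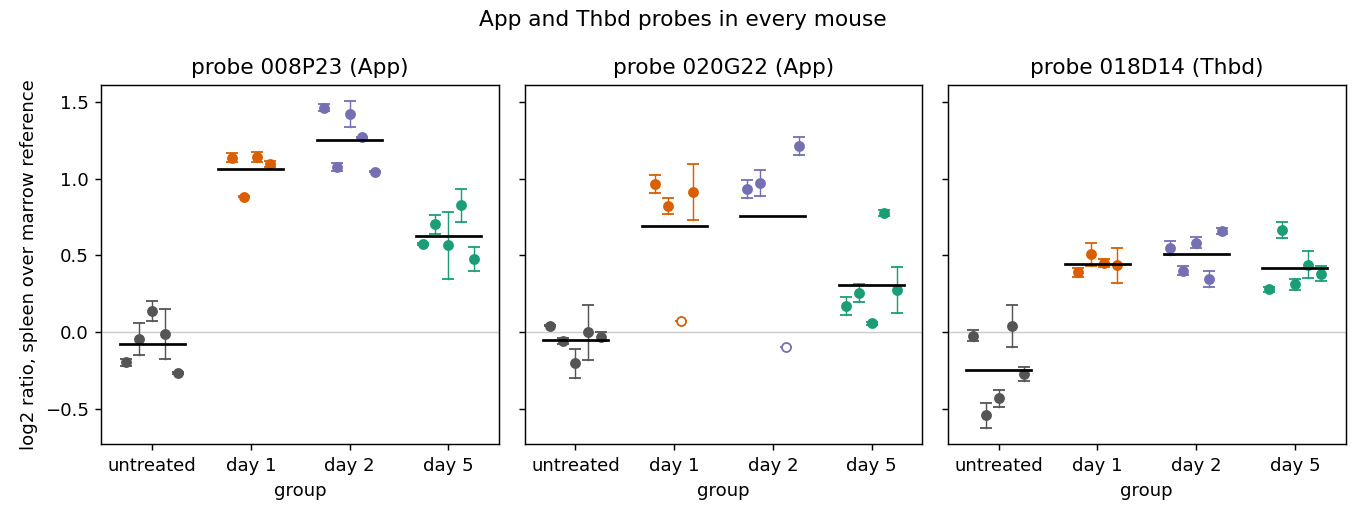
Log2 ratio of spleen over marrow reference (vertical axis) for the 3 probes in each mouse of the 4 groups; circles are mouse means, short bars the 2 technical columns, open circles mice with 1 column, and black lines group means. The App probe 008P23 falls back on day 5 toward the untreated mice without reaching them, while Thbd stays between 0.28 and 0.67 on day 5.

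The promoter of App is shown to place the gene, with the matches of a few known motifs in capitals. It is the stretch of 250 bases before the RefSeq start of App on the minus strand, chr16:85173708-85173957 of GRCm38.p6, the build of the sequence table. It is upstream of the gene and in no exon by that start.

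App promoter: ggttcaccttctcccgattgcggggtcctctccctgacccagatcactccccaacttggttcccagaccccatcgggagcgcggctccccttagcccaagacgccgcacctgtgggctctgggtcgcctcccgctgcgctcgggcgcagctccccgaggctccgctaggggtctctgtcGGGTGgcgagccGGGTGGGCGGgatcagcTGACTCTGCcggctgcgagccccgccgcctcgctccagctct

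The capitals mark, read from the left, a CACCC box on the other strand (GGGTG) at -71, a further one at -59 that overlaps a GC box (GGGCGG) starting at -55, and a match of the antioxidant element core TGACNNNGC at -42. Searched on both strands in 32851 promoter rows of the same length, CACCC was present in 52%, GGGCGG in 32.7% and TGACNNNGC in 10.2%. The cAMP element TGACGTCA, held by 1.55% of the promoters, was not among the letters of this window. The same was so for the AP-1 site TGANTCA (6.75%), the receptor half-site TGACCT (14%) and the NF-kB-like site GGAANTTCC (0.813%). The window was 70.8% G and C, against a median of 52.4%. These matches describe the letters and were set against no value of the arrays.

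Against untreated mice, App at probe 008P23 was 2.20-fold on day 1 (log2 1.14 ± 0.13 SE), 2.51-fold on day 2 (1.33 ± 0.12) and 1.63-fold on day 5 (0.71 ± 0.12), from the limma fit of all 4 groups. The 95% interval of the day 5 fold ran from 1.37 to 1.94. Probe 020G22 had smaller differences of 0.74 ± 0.23, 0.80 ± 0.23 and 0.36 ± 0.21 on the log2 scale. Its day 5 interval, from -0.092 to 0.80, included 0, and that of day 1 and of day 2 did not. Without the single-column mice its differences were 0.95 on day 1 and 1.09 on day 2. The sequences of the probes were not used here, so which part of the App transcript each reads is not stated.

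Thbd was 1.62-fold untreated on day 1 (log2 0.69 ± 0.13), 1.68-fold on day 2 (0.75 ± 0.12) and 1.58-fold on day 5 (0.66 ± 0.12). The 95% interval on day 5 ran from 1.32-fold to 1.89-fold, close to the interval of App 008P23 on that day. The 3 differences of Thbd lay within 0.09 of one another, less than the standard error of any of them. At the first App probe the day 5 value was 0.62 ± 0.12 below that of day 2 on the log2 scale, with no overlap between the 2 groups of mice. At the Thbd probe day 5 minus day 2 was -0.09 ± 0.12, and at App 020G22 it was -0.45 ± 0.23. The last was -0.73 without day 2 mouse 4, which had a single column, and -0.29 without day 2 mouse 5, and that of Thbd was -0.15 without day 5 mouse 2 and between -0.054 and -0.057 without day 2 mouse 5 or day 5 mouse 1. These differences use the day 5 values that chose the genes and were not tested.

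**Figure D2:**
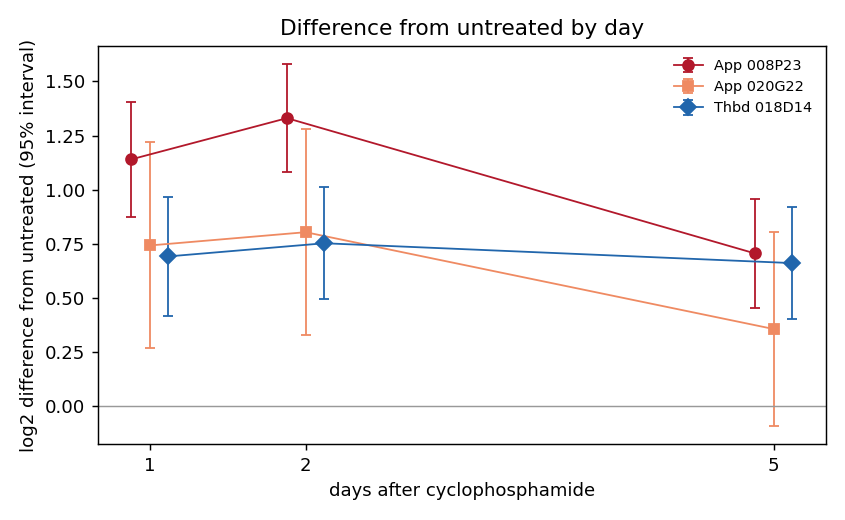
Log2 difference from untreated (vertical axis) by days after cyclophosphamide for the 3 probes, with 95% intervals from the limma fit. App 008P23 goes from 1.33 on day 2 to 0.71 on day 5, while Thbd has 0.75 and 0.66.

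The difference between days 1 and 2 is taken from neither the untreated nor the day 5 mice and was tested, with a spread that the fit shares over all 4 groups, the mice that chose the genes included. App at 008P23 was 0.19 ± 0.13 higher on day 2 (log2, 5 against 4 mice, limma adjusted p = 0.9), with a 95% interval of -0.074 to 0.46. App at 020G22 differed by 0.061 ± 0.24 (4 against 4 mice, limma adjusted p = 0.997; interval -0.44 to 0.56). Thbd differed by 0.061 ± 0.13 (limma adjusted p = 0.993; interval -0.21 to 0.34). For App at 008P23, 3 of 5 day 2 mice were above every day 1 mouse. With the mice of days 1 and 2 alone in the limma fit, the standard errors were 0.14, 0.29 and 0.12 and the adjusted p 0.896, 0.987 and 0.964 for 008P23, 020G22 and Thbd. None of the 3 probes passed the threshold of 0.05 in either fit, and over all probes 5 of 8319, or 0.0601%, did, all lower on day 2. In this comparison 501 probes had an unadjusted p below 0.05, and none of the 3 was among them.

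Few probes stood apart from untreated on day 5. In the limma fit 6 of 8319 had an adjusted p below 0.05, or 0.0721%, and 4 of them, 0.0481%, were higher. These 4 were F13a1 (1.25 ± 0.22), Itga2b (1.11 ± 0.20), App at 008P23 and Thbd, the latter with the smallest difference among them. Just outside that threshold were P2rx1 (0.70 ± 0.16), Ppbp (1.15 ± 0.28) and Pdcd4 (0.56 ± 0.13). The second App probe, at 0.36, was outside as well, so the choice of App rests on the first. The count of 6 went to 0 without untreated mouse 2 or 5, day 1 mouse 4, or day 5 mouse 4 or 5, while without any 1 mouse the day 5 difference was 0.66 to 0.76 for App at 008P23 and 0.59 to 0.73 for Thbd. Of the 2 genes beside them inside the threshold, F13a1, which encodes a subunit of clotting factor XIII found in platelets and macrophages, was 0.85 ± 0.22 below untreated on day 2, while Itga2b, the platelet integrin subunit, was 0.85 ± 0.21 above it. Both probes that led to the choice had every mouse of every treated day above every untreated mouse, as did 12 probes in all, or 0.144%. The comparisons with untreated share the 5 untreated mice, so the 3 days are not independent of one another, and nothing about the members is read from these shares.

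The secretases that cut the amyloid precursor protein did not pass the test on any day. Of 12 listed genes 8 were measured, with 0 of 8 past the threshold in either direction on each day, against 2.33% of all probes on day 1 (0.938% higher, 1.39% lower), 8.31% on day 2 (3.31% higher, 5% lower) and 0.0721% on day 5. At an unadjusted p below 0.05 there were 0, 1 and 0, against 13.2% of all probes on day 1, 20.9% on day 2 and 5.22% on day 5. The shares past the threshold and the unadjusted shares are each to be set beside the counts of the same kind that follow. The gamma-secretase genes Psen2 (-0.18 ± 0.21, 0.064 ± 0.23 and -0.037 ± 0.20 on days 1, 2 and 5), Ncstn (0.12 ± 0.13, -0.021 ± 0.12, 0.16 ± 0.12), Psenen (0.20 ± 0.18, 0.033 ± 0.17, 0.038 ± 0.17) and Aph1c (0.12 ± 0.22, -0.23 ± 0.22, -0.15 ± 0.21) lay near 0. The alpha-secretase genes Adam10 (-0.20 ± 0.24, -0.057 ± 0.23, 0.044 ± 0.24) and Adam17 (-0.27 ± 0.24, -0.038 ± 0.24, -0.098 ± 0.24) did so too. Adam9, a related protease, had 0.58 ± 0.24 on day 2, and Bace2, a relative of the beta-secretase, 0.42 ± 0.32 on day 1. The median of the list was 0.12, 0.01 and 0.04, against 0.02, 0.01 and 0.01 over all probes. The App relatives Aplp1 and Aplp2 had no probe among those compared.

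Among genes of App adaptors and sorting, 1 of 6 rose on day 1 and 2 of 6 on day 2, and none on day 5. At an unadjusted limma p below 0.05 there were 2, 3 and 0 of 6 on days 1, 2 and 5. Itm2b, a membrane protein that binds the amyloid precursor, rose by 0.98 ± 0.20 on day 1 (limma adjusted p = 0.0101) and 0.94 ± 0.19 on day 2 (adjusted p = 0.00345), and had 0.19 ± 0.19 on day 5. The endocytic receptor gene Lrp1 rose by 1.16 ± 0.31 on day 2 (adjusted p = 0.0226), with 0.37 ± 0.31 and 0.40 ± 0.29 on days 1 and 5. Itm2a had 0.78 ± 0.31, 0.82 ± 0.30 and 0.41 ± 0.30, and the scaffold gene Mapk8ip1 -0.26 ± 0.17 on day 2. The list medians were 0.22, 0.35 and 0.19. The day 1 call of Itm2b was lost without the 3 mice of lowest technical correlation (0.824 to 1.12 over all alternatives), and Lrp1 lost its call in 6 of 28 alternatives.

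Genes that clear or carry amyloid beta moved both ways. Of 7 measured, 1 rose on day 1, 2 rose and 1 fell on day 2, and 0 passed on day 5. At an unadjusted limma p below 0.05 there were 4, 4 and 1 on days 1, 2 and 5. Clu, an extracellular chaperone, rose by 1.497 ± 0.39 on day 1 (limma adjusted p = 0.0447) and 1.26 ± 0.37 on day 2 (adjusted p = 0.0378) and had 1.00 ± 0.37 on day 5. The lipid exporter gene Abca1 rose by 0.69 ± 0.20 on day 2 (adjusted p = 0.0373) and had -0.021 ± 0.20 on day 5. Ide, a protease that degrades insulin and amyloid beta, fell by 0.48 ± 0.11 on day 2 (adjusted p = 0.0108). The cathepsin gene Ctsb had 0.44 ± 0.18 and 0.48 ± 0.17 on days 1 and 2. The medians were 0.39, 0.27 and 0.02. Clu lost its call in 17 of 29 alternatives on day 1 and 12 of 29 on day 2, and Abca1 in 11 of 29.

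In the protein C pathway, in which thrombomodulin acts, 4 of the 9 other genes were measured and 1 rose on day 2. Pros1, the gene of protein S, rose by 1.02 ± 0.31 on day 2 (limma adjusted p = 0.044), with 0.021 ± 0.32 on day 1 and 0.058 ± 0.31 on day 5. Proc, which encodes protein C itself and is a liver gene, had -0.12 ± 0.15, 0.049 ± 0.17 and -0.17 ± 0.15. The thrombin receptor genes F2rl2 (0.37 ± 0.23, 0.49 ± 0.22, 0.84 ± 0.22) and F2rl3 (0.24 ± 0.26, 0.58 ± 0.25, 0.57 ± 0.25) were above 0 on each day and did not pass. None of the 4 passed on day 1, with 0 at an unadjusted limma p below 0.05 (13.2% of all probes), or on day 5, with 2 (5.22%). On day 2 there were 3 at an unadjusted p below 0.05 (20.9%). The medians were 0.13, 0.53 and 0.32. The call of Pros1 was lost in 17 of 28 alternatives.

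Of 8 coagulation factor genes, F13a1 fell by 0.85 ± 0.22 on day 2 (limma adjusted p = 0.0209) and rose by 1.25 ± 0.22 on day 5 (adjusted p = 0.0396), and it was the only one past the threshold. The day 5 call was lost in 17 of 29 alternatives. After scaling all arrays to one spread its day 2 value was 0.129. The others with the smallest p were F8 (0.45 ± 0.15 on day 2), Vkorc1, which recycles vitamin K for clotting factors (0.50 ± 0.18 on day 1), and Fga (0.31 ± 0.21 on day 2). On day 1 the list had 0 past the threshold. It had 2, 3 and 2 at an unadjusted limma p below 0.05 on days 1, 2 and 5. Of 5 genes of anticoagulants and fibrinolysis 0 passed on any day, with 0, 0 and 1 at an unadjusted p below 0.05 in limma. Plau, the urokinase gene, had -0.36 ± 0.15 on day 5 at the probe with most values and -0.08 at its other probe, the tissue activator gene Plat -0.62 ± 0.57 on day 1, and the inhibitor genes Serpinc1 and Tfpi2 0.29 ± 0.16 and -0.26 ± 0.23 on day 2.

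Of 7 transcription factor genes known to act on Thbd 0 passed on any day in limma, with 1 at an unadjusted p below 0.05 on each day. Klf2, which raises thrombomodulin in endothelium and was named after its values were seen, had 0.19 ± 0.20, 0.27 ± 0.20 and -0.21 ± 0.20. Sp1 had 0.54 ± 0.18 on day 2, Nfe2l2 -0.41 ± 0.17 on day 1, Mef2c -0.74 ± 0.26 on day 5 and the retinoic acid receptor gene Rara -0.30 ± 0.17 on day 2. Among the lectin-like relatives of thrombomodulin, Cd93 had 0.25 ± 0.21, -0.017 ± 0.20 and 0.34 ± 0.20, and Clec14a 0.53 ± 0.34, 0.57 ± 0.32 and 0.44 ± 0.32. Neither passed on any day, and neither had an unadjusted p below 0.05.

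**Figure D3:**
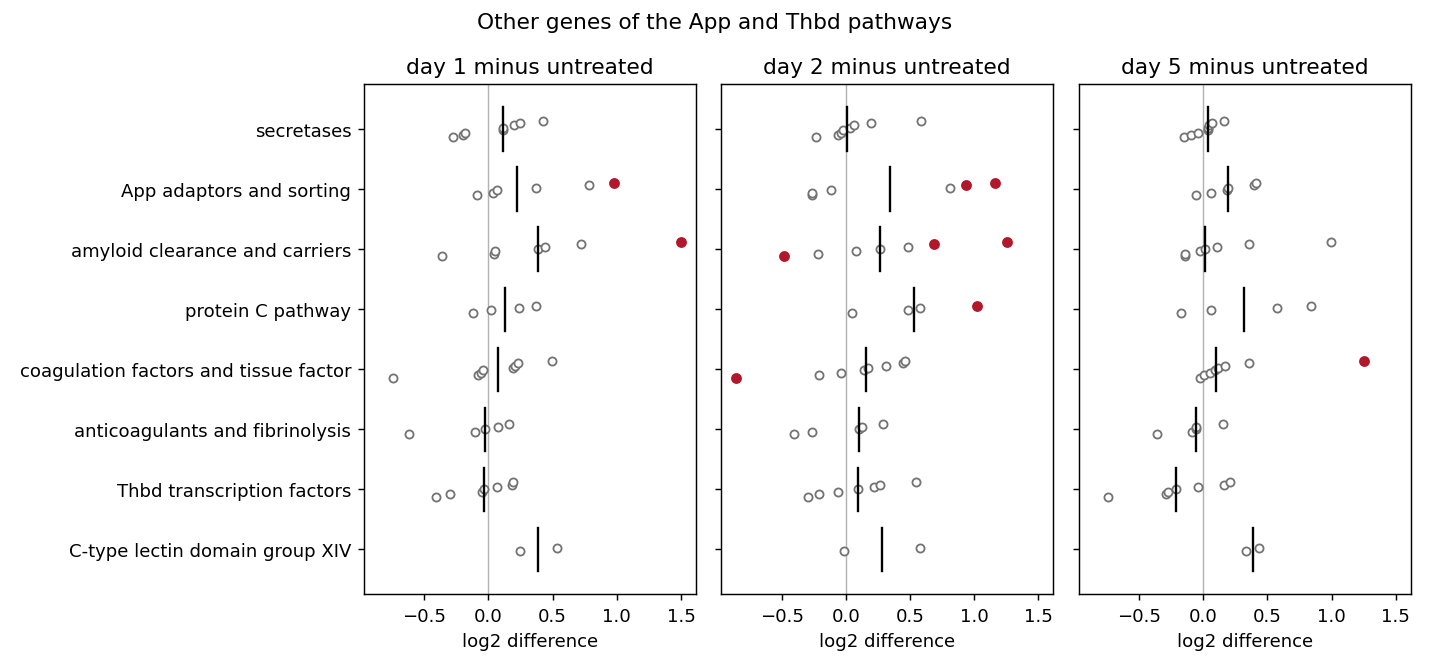
Log2 difference from untreated (horizontal axis) on days 1, 2 and 5 for each measured gene of the 8 pathway lists, without App and Thbd; filled circles passed the limma test at an adjusted p below 0.05, open circles did not, and vertical bars are list medians. The filled circles number 2 on day 1, 7 on day 2 and 1 on day 5.

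Cells that carry thrombomodulin or the amyloid precursor were followed through marker lists. Of 6 megakaryocyte and platelet genes 1 rose on day 2 and 1 on day 5, Itga2b both times (0.85 ± 0.21, limma adjusted p = 0.0157, and 1.11 ± 0.20, adjusted p = 0.0396), and 0 on day 1. At an unadjusted limma p below 0.05 there were 2, 3 and 4 on days 1, 2 and 5, where 13.2%, 20.9% and 5.22% of all probes were. The platelet chemokine genes Ppbp (0.71 ± 0.30, 0.79 ± 0.28, 1.15 ± 0.28) and Pf4 (0.47 ± 0.45, 0.62 ± 0.42, 1.19 ± 0.42) and Treml1 (0.42 ± 0.21, 0.52 ± 0.20, 0.61 ± 0.20) had larger differences on each later day and did not pass. The remaining genes of the list did not climb in that order. They were Itgb3 (-0.023 ± 0.14, 0.24 ± 0.14, 0.11 ± 0.13) and Clec1b (0.20 ± 0.23, -0.0038 ± 0.25, 0.28 ± 0.23). The list median was 0.45, 0.57 and 0.86. In single mice the median over the list lay between -0.18 and 0.28 in untreated mice, 0.33 and 0.76 on day 1, 0.15 and 1.02 on day 2, and 0.41 and 1.14 on day 5. It was above every untreated mouse in 4 of 4, 4 of 5 and 5 of 5 mice on days 1, 2 and 5. The median of a mouse covers only the genes with a value in it, so its genes differ between some mice. The part of platelet RNA in the App and Thbd values was not tested. The day 5 call of Itga2b was lost in 20 of 28 alternatives, 15 of them fits that leave out 1 mouse.

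Of 9 macrophage genes 1 rose on day 1, 3 on day 2 and 0 on day 5. Over all probes 0.938% rose on day 1, 3.31% on day 2 and 0.0481% on day 5. At an unadjusted limma p below 0.05 there were 4, 4 and 2 on days 1, 2 and 5. Siglec1, a receptor of splenic macrophages, rose by 0.77 ± 0.16 on day 1 (limma adjusted p = 0.0124) and 1.24 ± 0.15 on day 2 (adjusted p = 2.22e-05). On day 2 Mrc1, the mannose receptor, rose by 1.08 ± 0.31 (adjusted p = 0.0363) and Slc40a1, which exports iron, by 1.25 ± 0.26 (adjusted p = 0.00446). The complement gene C1qa had 0.076 ± 0.50 on day 2 and 1.84 ± 0.48 on day 5 (limma adjusted p = 0.504), with a value in 3 untreated mice. The other C1q genes of the list, C1qb and C1qc, had -0.15 ± 0.54 and 1.02 ± 0.47 on day 5. The call of Mrc1 was lost in 13 of 29 alternatives, 7 of them fits that leave out 1 mouse. Cd163 was below 0 on each day (-0.013 ± 0.15, -0.30 ± 0.14, -0.0058 ± 0.14), and Vcam1 had 0.15 ± 0.43, 0.43 ± 0.41 and 0.018 ± 0.43. The list median was 0.77, 0.65 and 0.34, with 8, 8 and 7 of the 9 genes above 0. Its level in single mice lay between 0.13 and 0.69 in untreated mice, 0.95 and 1.66 on day 1, 0.21 and 1.85 on day 2, and 0.90 and 1.59 on day 5, above every untreated mouse in 4 of 4, 3 of 5 and 5 of 5. This level covers only the genes with a value in the mouse. From untreated to day 5, C1qa had a value in 3, 3, 4 and 5 mice and C1qc in 4, 4, 4 and 5. So the mice are compared over unlike sets of genes, and the separation was not tested. The part of macrophage RNA in the App and Thbd values was not tested.

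Endothelium is the classic site of thrombomodulin. Of 12 endothelial genes measured, 1 passed on any day, Robo4, with a rise of 0.71 ± 0.20 on day 2 (limma adjusted p = 0.0283), and its call was lost in 11 of 27 alternatives. Cdh5, the cadherin of endothelial junctions, had -0.30 ± 0.13, -0.29 ± 0.12 and -0.31 ± 0.12, while Egfl7 had 0.52 ± 0.17 and Sox17 0.51 ± 0.18 on day 2. At an unadjusted limma p below 0.05 there were 2 on day 1, 4 on day 2 and 1 on day 5. The median over the list was 0.15, 0.27 and 0.17. In single mice it ran from -0.14 to 0.22 untreated and -0.044 to 0.41 on day 5, so the groups overlapped, with 2 of 5 day 5 mice above every untreated mouse.

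Monocyte genes other than F13a1 did not pass. With F13a1 included, 2, 2 and 3 of 6 had an unadjusted limma p below 0.05 on days 1, 2 and 5. Clec4e (0.37 ± 0.19, 0.30 ± 0.18, 0.44 ± 0.18), Ms4a6c (0.47 ± 0.19, 0.46 ± 0.18, 0.42 ± 0.18) and Lyz2 (0.65 ± 0.46, 0.25 ± 0.44, 0.75 ± 0.46) were above 0 on each day, and the median over 6 genes was 0.20, 0.09 and 0.43. Vcan (-0.067 ± 0.16, -0.12 ± 0.15, 0.11 ± 0.15) and Cx3cr1 (0.026 ± 0.17, -0.058 ± 0.16, 0.064 ± 0.17) lay near 0. Above 0 were 4, 3 and 6 of the 6 genes on days 1, 2 and 5. In single mice the median over the list ran from -1.26 to -0.57 untreated and -0.96 to -0.12 on day 5. Of 9 dendritic cell genes 0 passed on any day, with 1 at an unadjusted p below 0.05 on each, and the medians were -0.01, 0.03 and -0.08. Tcf4 had 0.62 ± 0.19 on day 1, Batf3 0.87 ± 0.40 on day 2, and Irf4 and Itgae -0.41 ± 0.17 and -0.28 ± 0.17 on day 5.

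Of 9 stroma genes the collagen gene Col14a1 rose on days 1 and 2 (1.46 ± 0.30 and 1.49 ± 0.28), with Dcn at 1.25 ± 0.41, Cxcl12 at 1.42 ± 0.47 and Col1a2 at 0.23 ± 0.16 on day 1. Of the 9, 3, 4 and 0 had an unadjusted limma p below 0.05 on days 1, 2 and 5. The stroma median was 0.41, 0.47 and 0.26, with 9, 6 and 5 of the 9 genes above 0. Col3a1 had -0.31 ± 0.31 on day 2. On day 5 Col14a1 had 0.40 ± 0.28, Dcn 0.28 ± 0.39, Cxcl12 -0.022 ± 0.44 and Bgn -0.31 ± 0.63. Of the red cell precursor genes 4 of 10 fell on day 1 and 7 of 10 on day 2, where 1.39% and 5% of all probes did. Their counts at an unadjusted limma p below 0.05 were 5, 7 and 0 on days 1, 2 and 5. Of the day 2 calls, that of Tfrc, the transferrin receptor, was lost in 16 of 26 alternatives (12 of them leaving out 1 mouse), that of Ermap in 10 of 29 (6) and that of Car2, a carbonic anhydrase, in 5 of 28 (2). The day 2 calls of Alas2, Rhd, Kel and Fech were kept in 29 of 29. At the probe with most values Car2 had -1.88 ± 0.50 and Rhd -3.47 ± 0.39 on day 2. Their other probes had smaller falls, -0.61 for Car2 and -1.33 for Rhd on that day. Alas2, the first enzyme of red cell heme synthesis, fell by 3.94 ± 0.32 on day 2 and had -0.45 ± 0.32 on day 5. The list median was -1.08, -1.21 and -0.12, and in single mice the median over the list was below every untreated mouse in 4 of 4, 5 of 5 and 4 of 5 mice. The part of red cell precursor RNA in the App and Thbd values was not tested. Of 7 B cell, 6 T cell and 6 neutrophil genes 0 passed on any day in limma. At an unadjusted p below 0.05 there were 0, 1 and 2 B cell genes, 0, 1 and 1 T cell genes, and 1, 1 and 0 neutrophil genes on days 1, 2 and 5, where 13.2%, 20.9% and 5.22% of all probes were. On day 5 Cd22 had -0.52 ± 0.16, Cd28 -0.40 ± 0.18 and Ltf 0.80 ± 0.42, and other members of each list went the other way. Above 0 on day 5 were 4 of 7 B cell, 3 of 6 T cell and 4 of 6 neutrophil genes. The 3 list medians on that day were 0.17, -0.15 and 0.23.

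**Figure D4:**
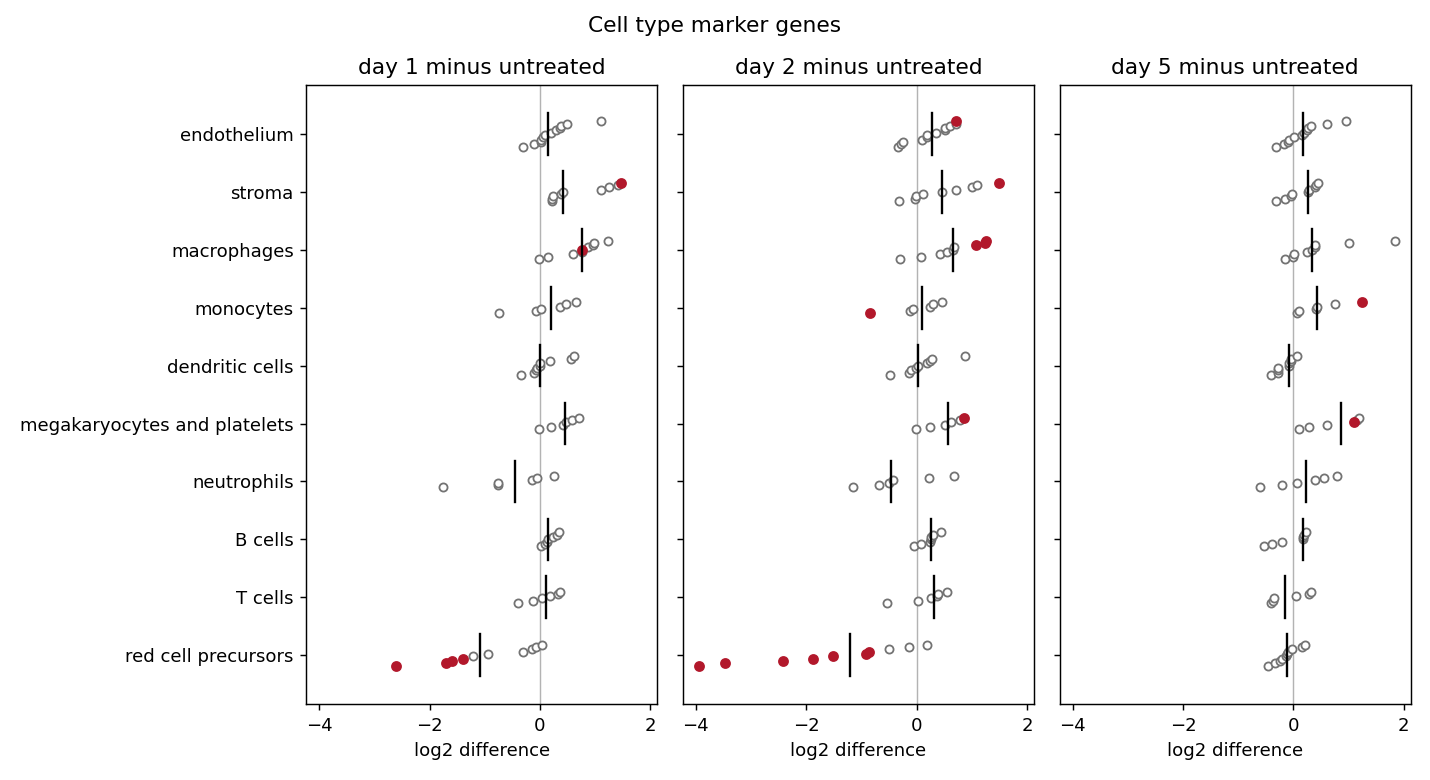
Log2 difference from untreated (horizontal axis) on days 1, 2 and 5 for each measured gene of the 10 cell type lists; filled circles passed the limma test at an adjusted p below 0.05, open circles did not, and vertical bars are list medians. On day 5 the filled circles are F13a1 (monocytes) and Itga2b (platelets), and the megakaryocyte and platelet list has the highest median, 0.86.

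Of the 8 genes near App and Thbd on their chromosomes that were compared, 0 passed on any day. Over all probes 2.33% passed on day 1, 8.31% on day 2 and 0.0721% on day 5. Nothing about the members is read from this count. Of the 3 nearest protein-coding genes on each side of App on chromosome 16, Jam2, Atp5j, Adamts1 and Adamts5 were compared, and their differences ran from -0.34 ± 0.25 (Atp5j, day 1) to 0.31 ± 0.18 (Adamts5, day 2). Of those around Thbd on chromosome 2, Pax1, Foxa2, Sstr4 and Cd93 were compared. They ran from -0.36 ± 0.19 (Pax1, day 2) to 0.34 ± 0.20 (Cd93, day 5). Gabpa, Cyyr1, Nxt1 and Gzf1 were not compared. The smallest adjusted p of the 8 on any day was 0.305 in the limma fit, that of Pax1 on day 2.

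Likeness of other genes to App or Thbd was measured by Pearson's r over the mice that have a value at the probe, among 3889 probes with 1 gene and a value in all 19 mice, or 4231 in the 18 mice of 020G22. The mice share their groups and the reference, so r holds the pattern of the group means, and no test was made. Closest to App at 008P23 were Pnpla2, a triglyceride lipase (r = 0.91), Pla2g7, which inactivates platelet-activating factor (0.89), Siglec1 (0.84), Tulp4 (0.84) and the sialomucin gene Cd164 (0.83). Within groups, as deviations from the group means, these 5 had r of only 0.28, 0.22, 0.19, 0.28 and -0.18. Pnpla2 had 0.59 ± 0.11, 0.64 ± 0.10 and 0.21 ± 0.10 against untreated on days 1, 2 and 5, and Pla2g7 1.11 ± 0.17, 1.13 ± 0.16 and 0.50 ± 0.16. Closest to App at 020G22 were B4galt4 (r = 0.84), Cxcl12, Pla2g7 and Selenop (0.82 each) and Celf2 (0.81), so Pla2g7 stood in the list of both App probes. Within groups their r ran from 0.60 to 0.76, in a probe with 2 low single-column mice, while that between the 2 App probes was -0.10.

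Closest to Thbd were Pcp4l1 (r = 0.85), Tnfsf13, the gene of the B cell survival factor APRIL (0.85), Hsd3b7, an enzyme of bile acid synthesis (0.84), Lurap1l (0.83) and Pilrb1, an activating receptor of myeloid cells (0.83). Within groups their r ran from 0.32 to 0.70. Their differences from untreated are given for days 1, 2 and 5. Tnfsf13 had 0.80 ± 0.23, 0.76 ± 0.21 and 0.88 ± 0.21, and Pcp4l1 0.65 ± 0.21, 0.76 ± 0.20 and 0.70 ± 0.20. Hsd3b7 had 0.68 ± 0.15, 0.70 ± 0.14 and 0.56 ± 0.14, Lurap1l 0.86 ± 0.26, 0.96 ± 0.25 and 0.63 ± 0.25, and Pilrb1 1.04 ± 0.20, 1.00 ± 0.19 and 0.67 ± 0.19. None of these 5 was among the genes closest to either App probe. The 5 genes nearest App at 008P23 had day 5 differences of 0.21 to 0.50, lower than their own day 2 values of 0.64 to 1.24. The genes near each probe were picked by r over all mice, which holds the group means. Their likeness in pattern over the days thus comes with the choice.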

How the data were processed

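Spleen RNA of 19 mice was hybridised to 38 array columns of 2 colours against a common marrow reference, per the labels. The authors deposited log2 ratios of spleen over reference with array medians of -0.0212 to 0.0132 and a bound at 6. The log base is not stated and was taken as 2. The sources used here do not give the background correction, the spot filter, the normalization, slides or scan times, so no batch was tested. Of the entries 63.2% hold a value.

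For each mouse both technical columns were averaged. The fit took probes measured in 3 or more mice per group and estimated 4 group means with a shared spread (limma 3.58.1, R 4.3.3, lmFit and eBayes). Tests were two-sided with Benjamini-Hochberg adjustment over 8319 probes and a threshold of 0.05. Standard errors and 95% intervals of differences are those of this fit, and its p-values measure the spread between mice. Lists hold 1 probe per gene, that with most values, leave out App and Thbd, and have no set test. The list median of a single mouse covers the genes with a value in that mouse. The members, lists and tests were chosen with earlier results of these data known. Genes named include all measured ones of the secretases, protein C pathway and lectin relatives, 3 neighbours on each side, and the 5 highest r per probe. Of other lists, some but not all members past the threshold or of smallest p (up to 4) are named. Klf2, C1qb, C1qc, Itgb3, Clec1b, Vcan, Cx3cr1, Cd163, Vcam1, Col3a1 and Bgn were named after their values were seen. Symbols of 10028 probes came through gene identifiers in a RefSeq table (GRCm38.p6). Simulated data tested the fit, which found 79 to 83 of 100 probes changed 2-fold per comparison, among 8319. False calls were 9 of 188 for day 1, 13 of 193 for day 2, 7 of 185 for day 5 and 7 of 189 for day 2 against day 1. The simulated noise was independent between values, so effects of whole arrays were not part of it. Figures were drawn with matplotlib 3.10.9.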

Additional observations from a re-analysis of the deposited data

Results flagged for a closer look

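In 2 groups the lowest mouse stood apart from the rest by Dixon's criterion, which marks about 1 in 20 groups by chance. App at 008P23 in day 1 mouse 2 was 0.88, against 1.10 to 1.14 in the other 3 day 1 mice. App at 020G22 in day 1 mouse 3 was 0.074, against 0.82 to 0.96 in the other 3, and came from 1 technical column.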

How the results depend on the processing

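The differences of App and Thbd from untreated kept their sign and moved by less than the spread between mice under every alternative run, 28 for App 020G22 and 29 for each other probe. App 020G22 has no value where every mouse must have one. Day 5 minus day 2 of App 008P23 was -0.40 after quantile normalization and -0.43 with arrays at equal spread. Day 2 minus day 1 of App 020G22 turned to -0.061 with quantile normalization, -0.063 with equal spread, -0.23 with technical column 1 alone and -0.072 with the replicate block, and ran from -0.14 to 0.35 with 1 mouse left out, below 0 without day 1 mouse 3 (-0.14), day 2 mouse 2 (-0.011) or day 2 mouse 5 (-0.091). For Thbd, quantile normalization gave -0.031 for day 2 minus day 1 and 0.017 for day 5 minus day 2. The causes were not tested. Replicate numbers did not pair the mice: the mean correlation of 27 same-number pairs was 0.00199, 7 exceeded 0.1, and 5 of 19 mice correlated best with their own number. With the replicate block the probes past the threshold were 178, 603 and 0 on days 1, 2 and 5.

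Against 194 probes on day 1, the count was 116 with equal spread, 123 without the 3 mice whose technical columns correlated least, and 109 (without day 1 mouse 4, or 118 without day 1 mouse 2) to 224 with 1 mouse left out. On day 2 the 691 became 338 with quantile normalization, 345 with equal spread, 441 with the 2 groups alone, 450 without the 3 mice, and 501 to 690 with 1 left out. On day 5 the 6 became 0 with technical column 2, 11 with a value needed in 1 mouse per group, 0 with the block, 1 with the 2 groups alone, 1 without the 3 mice, and 0 to 6 with 1 left out. For day 2 against day 1 the 5 became 0 with quantile normalization, 0 with equal spread, 8 with the looser filter, 3 with the block, 1 with the 2 groups alone, and 3 (without day 1 mouse 3) to 11 (without day 1 mouse 2).

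Of 2 pathway members on day 1, 1 passed with quantile normalization, equal spread, either technical column or the 2 groups alone, 0 without the 3 mice, and 1 to 2 with 1 mouse left out. Of 7 on day 2 the number was 1 with quantile normalization, 2 with equal spread, 4 with technical column 2, 2 without the 3 mice, and 3 to 8 with 1 left out. The 1 on day 5 became 0 with quantile normalization, equal spread, technical column 2, the block or without the 3 mice, and 0 to 1 with 1 left out. Cell type members went from 6 to 2 on day 1 with equal spread (6 to 7 with 1 left out), and from 14 to 6, 5 and 8 on day 2 after quantile normalization, at equal spread and leaving out the 3 mice (9 to 16). On day 5 the 2 became 1 with quantile normalization, equal spread, technical column 1, a value in every mouse or the 2 groups alone, and 0 with technical column 2, the block or without the 3 mice (0 to 2). F13a1 on day 2 turned to 0.13 with equal spread. No neighbour passed under any alternative.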
